A study of Arabidopsis thaliana with 6 samples.

Results

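The receptors of CLE peptides that carry the CLAVATA name or act beside it, together with a pair of phosphatases that work downstream of them, were followed in whole seedlings of Arabidopsis thaliana. They were CLV1 (AT1G75820), CLV2 (AT1G65380), CRN (AT5G13290), RPK2 (AT3G02130), BAM1 (AT5G65700), BAM2 (AT3G49670), BAM3 (AT4G20270), POL (AT2G46920) and PLL1 (AT2G35350). Members were taken by locus code, which gave 9 genes of 28141 genes and assembled transcripts, and 13 of 36104 transcript entries. In each code the digit after AT names the chromosome.

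CLE peptides are short secreted signals that receptor kinases with leucine-rich repeats perceive at the cell surface. In the shoot apex, stem cells secrete CLV3, and its perception by CLV1, by CLV2 with CRN, and by RPK2 keeps the stem cell factor WUS within a small domain. The BAM receptors are close relatives of CLV1 that act in meristems, anthers and vascular tissue, and POL and PLL1 are protein phosphatases of the 2C type that were placed downstream of the receptors by genetics.

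RNA had been sequenced from 5-day-old whole seedlings of ecotype Col-0, kept on MS plates at 23 °C in days of 16 h of light and nights of 8 h. The groups were 3 fip37-4 LEC1:FIP37 libraries and 3 Wild-type libraries, each made from total RNA after removal of ribosomal RNA with a kit that keeps the strand. FIP37 belongs to the protein complex that places N6-methyladenosine on mRNA. The fip37-4 allele disrupts FIP37, whose loss is lethal to embryos, and the transgene restores FIP37 under the LEC1 promoter, which is active in embryos. The Wild-type plants carry neither. The labels do not say whether the mutant seedlings descend from a single transgenic line or whether replicates came from separate plates, so p-values measure the spread between these libraries, which may be technical. In whole seedlings, fewer cells of a type and less RNA per cell cannot be told apart.

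Values are FPKM, fragments scaled to transcript length and to the fragments mapped in a library, as the authors deposited them. Isoforms were summed per locus, and a locus was tested if it reached 0.5 FPKM in at least 3 of the 6 libraries, which 19383 did, all 9 members among them. Differences are fip37-4 LEC1:FIP37 minus Wild-type on the log2(FPKM + 0.5) scale, fold values are taken from them, and p-values come from limma with Benjamini-Hochberg adjustment over all loci. Libraries summed to 1160321 to 1350343 FPKM, and a single fragment on a transcript of 1500 nt was worth 0.0188 to 0.0263 FPKM. Genes of the organelle genomes held 56.9% to 60.1% of the summed FPKM in fip37-4 LEC1:FIP37 and 50.7% to 51.2% in Wild-type. On the second principal component, with 8.22% of the variance, mutant replicate 1 had a score of -21, away from the other mutant libraries at 8.81 and 13.9, and Wild-type scores were -4.5 to 1.83. FIP37 (AT3G54170) itself had 80.6, 65.0 and 67.5 FPKM in the libraries labelled fip37-4 LEC1:FIP37, against 8.99, 9.03 and 8.96 FPKM in Wild-type. This level sums transgene and endogenous transcripts, so directions below are those of the labelled groups and not of a measured loss of FIP37.

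Most of the receptor and phosphatase transcripts were more abundant in fip37-4 LEC1:FIP37 seedlings. Of the 9 genes, 6 rose (CLV1, CLV2, CRN, RPK2, BAM3 and POL), 0 fell, and BAM1, BAM2 and PLL1 did not pass the test (limma; 0 fell also at an unadjusted p under 0.05). Over all tested loci, 58.6% were called, 27.6% higher and 30.9% lower, so calls were common. Among loci in the length range of the 9 genes, 37.4% were called higher. The members' share of higher calls was above both, but they were chosen with earlier results of these data known, so this is a description. The median log2 fold change was 0.31 over the 9 genes, 0.11 over loci in their length range and -0.0019 over all tested loci. Changes were modest, with folds from 1.22 for CLV2 to 1.5 for BAM3 among the called genes. The groups did not overlap for 7 of the 9 genes, 6 of them higher and 1 lower in fip37-4 LEC1:FIP37, where 31.9% of all tested loci lay wholly higher and 34.1% wholly lower. Without fip37-4 LEC1:FIP37 replicate 1, 5 of the 9 were called higher and 0 lower.

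**Figure D1:**
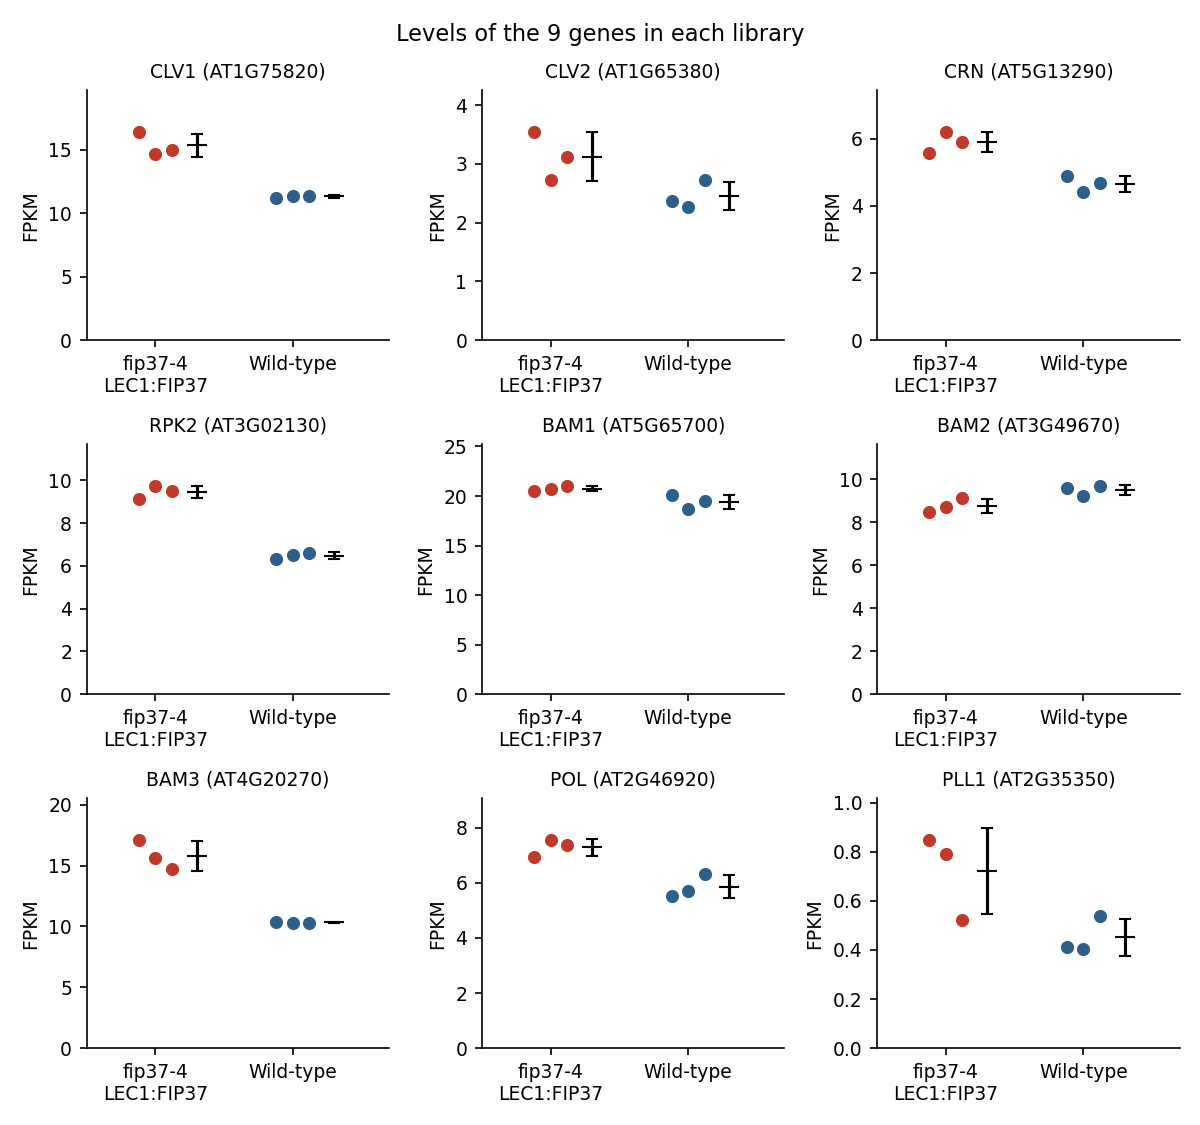
Level of each of the 9 genes in FPKM in each library, with the 3 fip37-4 LEC1:FIP37 libraries left and the 3 Wild-type libraries right in each panel; the bar beside the points is the mean with its SD. The groups do not overlap for CLV1, CRN, RPK2, BAM1, BAM2, BAM3 and POL, and BAM2 is the one of these that lies lower in fip37-4 LEC1:FIP37.

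CLV1, the receptor kinase that binds CLV3, is encoded by 2 exons with a coding sequence of 2943 nt in the RefSeq annotation of TAIR10.1. It had 16.4, 14.7 and 15 FPKM in fip37-4 LEC1:FIP37 and 11.2, 11.4 and 11.4 FPKM in Wild-type. Every mutant library lay above every Wild-type library, and the Wild-type libraries hardly differed. CLV1 rose by 0.42 ± 0.053 on the log2 scale (SE; adjusted p = 0.000212 by limma), a fold of 1.34. The call held in all 16 alternatives, with log2 fold changes from 0.28 to 0.52.

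BAM3, the relative of CLV1 that acts in the protophloem of the root and perceives CLE45, showed the largest change of the 9 genes. It had 17.1, 15.6 and 14.7 FPKM in fip37-4 LEC1:FIP37, against 10.4, 10.3 and 10.3 FPKM in Wild-type. The groups lay far apart, although the mutant libraries spread more widely (SD 1.22, against 0.0735 in Wild-type). BAM3 rose by 0.59 ± 0.06 on the log2 scale (SE; adjusted p = 7.46e-05 by limma), a fold of 1.5. This call also held in all 16 alternatives, from 0.45 to 0.68.

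BAM1 and BAM2, which act redundantly in anthers and in the meristem, did not share that rise. BAM1 was at 20.5, 20.7 and 21.0 FPKM in fip37-4 LEC1:FIP37 and at 20.1, 18.7 and 19.5 FPKM in Wild-type. The groups did not overlap, but the gap was small, at 0.092 ± 0.046 on the log2 scale (SE; adjusted p = 0.12 by limma). Its direction depended on the scaling, since quantile normalization gave 0.25 (limma adjusted p = 0.00121) and removal of a trend with transcript length gave -0.056 (limma adjusted p = 0.323). BAM2 was at 8.46, 8.69 and 9.11 FPKM in fip37-4 LEC1:FIP37 and at 9.6, 9.22 and 9.67 FPKM in Wild-type. Every mutant library lay below every Wild-type library, with a difference of -0.11 ± 0.052 (SE; adjusted p = 0.0956 by limma). With the length trend removed the difference was -0.26, and BAM2 was then called lower (limma adjusted p = 0.0031). In the RefSeq annotation a long non-coding RNA, AT3G49668, overlaps BAM2 by 757 nt on the opposite strand. The sources used here do not state whether the counting kept to the strand. Within that overlap it is therefore not known whether reads of the neighbour were counted for BAM2.

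The unequal changes shifted the balance among the CLV1-type receptor kinases. FPKM are per length, so levels of different genes can be set side by side. The genotype effect still varied with transcript length, and the ratios, shares and orders of level were not corrected for that trend. The ratio of CLV1 to the summed level of BAM1, BAM2 and BAM3 was 0.355, 0.327 and 0.335 in fip37-4 LEC1:FIP37 and 0.279, 0.298 and 0.288 in Wild-type. Within the BAM genes, BAM3 held 34.9 ± 2.19% of the summed FPKM in fip37-4 LEC1:FIP37 and 26.4 ± 0.531% in Wild-type (SD, n = 3 each). The share of BAM1 was 45.8% in fip37-4 LEC1:FIP37 and 49.5% in Wild-type, and that of BAM2 was 19.3% in fip37-4 LEC1:FIP37 and 24.2% in Wild-type. The clearest contrast was BAM3 against BAM2, a pair chosen after its values were seen. The ratio of BAM3 to BAM2 was 2.02, 1.8 and 1.61 in fip37-4 LEC1:FIP37 and 1.09, 1.12 and 1.07 in Wild-type. None of these quantities overlapped between the groups. For BAM3 to BAM2 this follows from the levels, since BAM3 lay wholly higher and BAM2 wholly lower in fip37-4 LEC1:FIP37. Separate levels were common, with 31.9% of all tested loci wholly higher and 34.1% wholly lower. The ratios and shares were not tested, and with 3 against 3 libraries an exact permutation test could not go below 0.1.

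CLV2, a receptor-like protein with leucine-rich repeats and no kinase domain, was low in both groups. It had 3.54, 2.72 and 3.11 FPKM in fip37-4 LEC1:FIP37 and 2.37, 2.27 and 2.73 FPKM in Wild-type. The groups overlapped, since mutant replicate 2 lay just below Wild-type replicate 3. CLV2 passed the test narrowly, at 0.29 ± 0.1 on the log2 scale (SE; adjusted p = 0.0394 by limma), a fold of 1.22. The call was lost in 8 of 16 alternatives. It was lost after quantile normalization (limma adjusted p = 0.158), with scaling to the nuclear sum (limma adjusted p = 0.0824), with the length trend removed (limma adjusted p = 0.0893) and with no filter (limma adjusted p = 0.0538). Leaving out mutant replicate 1 or 3 also ended it (adjusted p of 0.109 and 0.0816 by limma), as did leaving out Wild-type replicate 1 or 2 (adjusted p of 0.105 and 0.125).

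CRN, the membrane-bound pseudokinase that partners CLV2, rose more firmly. Its summed level was 5.59, 6.2 and 5.92 FPKM in fip37-4 LEC1:FIP37 and 4.89, 4.42 and 4.67 FPKM in Wild-type. The groups did not overlap, and the log2 fold change was 0.31 ± 0.066 (SE; adjusted p = 0.00381 by limma), a fold of 1.24. The call held in all 16 alternatives, from 0.27 to 0.35. The ratio of CLV2 to CRN was 0.634, 0.439 and 0.526 in fip37-4 LEC1:FIP37 and 0.485, 0.514 and 0.584 in Wild-type, and so overlapped. In the RefSeq annotation CRN shares 423 nt with AK-LYS1 (AT5G13280), an aspartate kinase gene on the opposite strand, and 369 nt with AT5G13295. AK-LYS1 was at 14.4, 13.0 and 14.0 FPKM in fip37-4 LEC1:FIP37 and at 14.8, 13.3 and 14.1 FPKM in Wild-type, a difference of -0.028 on the log2 scale (adjusted p = 0.707 by limma). Its part in the value of CRN was not tested.

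RPK2, a receptor kinase of the shoot meristem, the embryo and the anther, rose nearly as much as BAM3. It had 9.14, 9.73 and 9.5 FPKM in fip37-4 LEC1:FIP37 and 6.31, 6.49 and 6.62 FPKM in Wild-type. Both groups were tight and well apart, with a log2 fold change of 0.51 ± 0.052 (SE; adjusted p = 7.04e-05 by limma) and a fold of 1.43. It kept its call in all 16 alternatives, from 0.33 to 0.55. With a transcript of 4233 nt it is the longest of the 9 genes, and its lowest value came with the length trend removed.

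POL, the phosphatase after which the family is named, had 6.95, 7.55 and 7.37 FPKM in fip37-4 LEC1:FIP37 and 5.54, 5.71 and 6.32 FPKM in Wild-type. The groups did not overlap, and POL rose by 0.3 ± 0.066 on the log2 scale (SE; adjusted p = 0.00507 by limma), a fold of 1.23. The call was lost with the length trend removed (0.14, limma adjusted p = 0.0961) and with its highest transcript alone (0.26, limma adjusted p = 0.0609). Its partner PLL1 was the scarcest of the 9 genes, at 0.847, 0.792 and 0.52 FPKM in fip37-4 LEC1:FIP37 and 0.411, 0.402 and 0.539 FPKM in Wild-type. Mutant replicate 3 fell among the Wild-type libraries, so the groups overlapped. These values rest on an estimated 37 to 80 fragments a library. The difference of PLL1 was 0.35 ± 0.14 (SE; adjusted p = 0.0547 by limma) and was not called. Without fip37-4 LEC1:FIP37 replicate 3 it was 0.48 and called (limma adjusted p = 0.0155), and plain empirical Bayes also called it (limma adjusted p = 0.0377). The ratio of POL to PLL1 was 8.2, 9.54 and 14.2 in fip37-4 LEC1:FIP37 and 13.5, 14.2 and 11.7 in Wild-type, again with overlap.

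Set in order of level, BAM1 led in both groups and PLL1 was last. In fip37-4 LEC1:FIP37 the order of means was BAM1 at 20.7, BAM3 at 15.8, CLV1 at 15.4, RPK2 at 9.46, BAM2 at 8.76, POL at 7.29, CRN at 5.9, CLV2 at 3.12 and PLL1 at 0.72 FPKM. BAM3 and CLV1 overlapped there, and no other neighbours did. In Wild-type it was BAM1 at 19.4, CLV1 at 11.3, BAM3 at 10.4, BAM2 at 9.5, RPK2 at 6.47, POL at 5.86, CRN at 4.66, CLV2 at 2.46 and PLL1 at 0.451 FPKM. RPK2 and POL overlapped in Wild-type, and no other neighbours did. In the mutant BAM3 stood above CLV1, within their spread, and RPK2 stood above BAM2, beyond it, both the reverse of Wild-type.

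The 9 genes together summed to 88.5, 86.8 and 86.2 FPKM in fip37-4 LEC1:FIP37, against 70.9, 68.8 and 71.8 FPKM in Wild-type. Shares of that sum moved apart for the receptor kinases and overlapped for the rest. BAM1 held 23.8 ± 0.604% in fip37-4 LEC1:FIP37 and 27.6 ± 0.716% in Wild-type (SD, n = 3 each). BAM2 held 9.56% to 10.6% in fip37-4 LEC1:FIP37 and 13.4% to 13.5% in Wild-type. BAM3 held 18.1 ± 1.16% in fip37-4 LEC1:FIP37 and 14.7 ± 0.28% in Wild-type, and RPK2 held 10.9 ± 0.469% in fip37-4 LEC1:FIP37 and 9.18 ± 0.27% in Wild-type. CLV1 took 17.6 ± 0.787% in fip37-4 LEC1:FIP37 and 16.1 ± 0.392% in Wild-type. The shares of CLV2, CRN, POL and PLL1 overlapped between the groups, with means for CRN of 6.77% in fip37-4 LEC1:FIP37 and 6.6% in Wild-type.

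**Figure D2:**
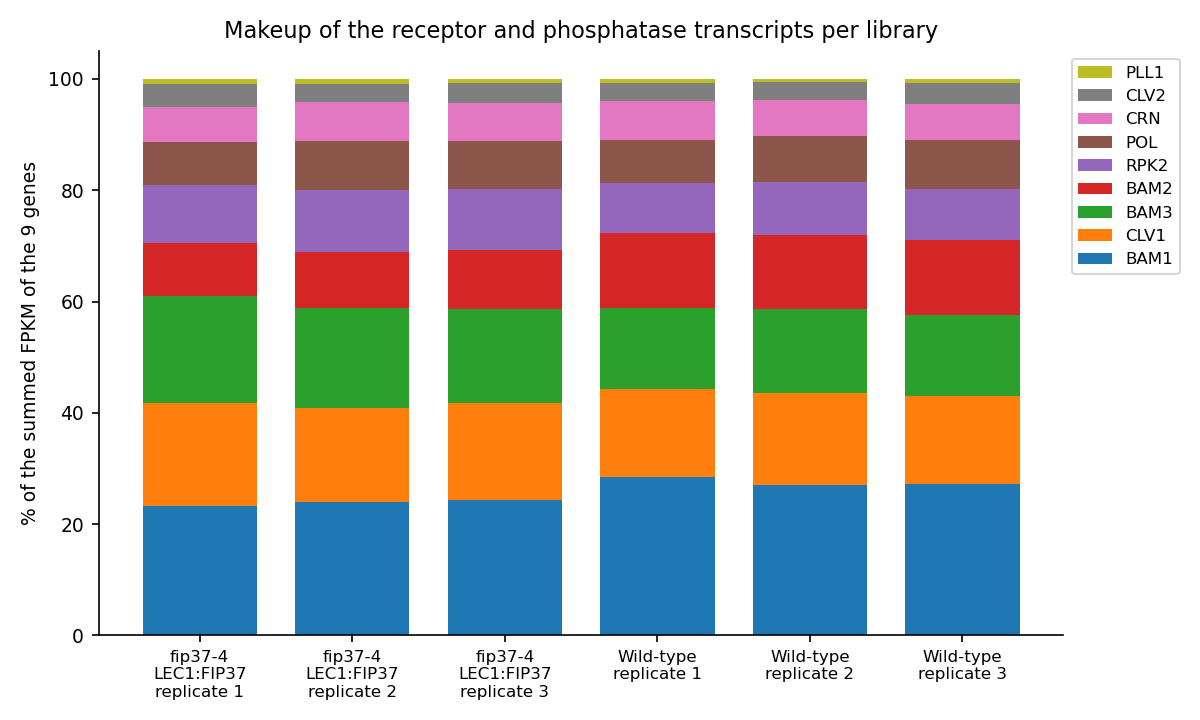
Share of each gene, in percent of the summed FPKM of the 9 genes, as stacked bars for the 3 fip37-4 LEC1:FIP37 libraries left and the 3 Wild-type libraries right. The BAM3 band is thicker in fip37-4 LEC1:FIP37 (17.0% to 19.3%, against 14.4% to 15% in Wild-type), and the BAM2 band is thinner (9.56% to 10.6%, against 13.4% to 13.5%).

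Of the 9 genes, 6 had a single transcript entry in the files, and CRN, BAM1 and POL had several. The RefSeq annotation has 4 transcripts for POL, where 2 entries were deposited, and 2 for RPK2, where 1 was. Isoform shares and tests below cover the deposited entries alone. Tested transcript by transcript, 4 entries were higher (those of CLV1, RPK2 and BAM3 and the second of CRN), where 21.2% of 23001 tested transcripts were, and 0 were lower, where 25.1% were. CLV2, with its single entry, had limma adjusted p = 0.0709 in this fit. CRN.2 carried most of the CRN level, with 4.58, 5.26 and 4.99 FPKM in fip37-4 LEC1:FIP37 and 3.68, 3.55 and 4.18 FPKM in Wild-type. The groups did not overlap (log2 fold change 0.34 ± 0.085, SE; adjusted p = 0.0151 by limma), but the call ended when mutant replicate 2 was left out (adjusted p = 0.0514) and when Wild-type replicate 1 or 2 was (adjusted p of 0.0521 and 0.054).

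CRN.1, an entry with 3 exons where CRN.2 has 2, was at 0.815, 0.935 and 0.705 FPKM in fip37-4 LEC1:FIP37 and at 1.14, 0.795 and 0.487 FPKM in Wild-type. It rests on 35 to 87 fragments a library and did not pass the test (log2 fold change 0.037 ± 0.2, SE; adjusted p = 0.897 by limma). CRN.3 was below the filter, at 0.187, 0 and 0.224 FPKM in fip37-4 LEC1:FIP37 and at 0.0696, 0.0723 and 0 FPKM in Wild-type. The annotated coding sequences are 1131 nt for CRN.1, 1206 nt for CRN.2 and 921 nt for CRN.3, so these entries predict different proteins. CRN.2 made up 83.8 ± 1.5% of the locus in fip37-4 LEC1:FIP37 and 81.7 ± 7.28% in Wild-type (SD, n = 3 each).

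The POL entries have annotated coding sequences of equal length, 2571 nt. POL.2 held 74.6 ± 2.86% of the locus in fip37-4 LEC1:FIP37 and 76.4 ± 6.39% in Wild-type (SD, n = 3 each). POL.1 had 1.74, 1.72 and 2.1 FPKM in fip37-4 LEC1:FIP37 and 1.71, 1.17 and 1.23 FPKM in Wild-type, and POL.2 had 5.21, 5.83 and 5.27 FPKM in fip37-4 LEC1:FIP37 and 3.82, 4.54 and 5.1 FPKM in Wild-type. Neither passed on its own (limma adjusted p of 0.0909 and 0.0824). The groups were barely apart, with the lowest mutant and highest Wild-type values at 1.72 and 1.71 FPKM for POL.1 and at 5.21 and 5.1 FPKM for POL.2. Among all tested loci, with isoforms summed, 31.9% lay wholly higher in fip37-4 LEC1:FIP37. BAM1 was almost wholly BAM1.1, with 96.4 ± 1.08% in fip37-4 LEC1:FIP37 and 97.4 ± 2.56% in Wild-type. BAM1.2 was at 0.815, 0.5 and 0.941 FPKM in fip37-4 LEC1:FIP37 and at 0.57, 0 and 0.999 FPKM in Wild-type.

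Isoform balance, the change of a transcript against the others of its locus, was not called for any entry of CRN, BAM1 or POL, where limma's diffSplice called 684 of 6639 transcripts (10.3%). At an unadjusted p under 0.05, 0 of the 6 tested entries of these genes passed. The adjusted p from diffSplice was 0.446 for CRN.2, 0.699 for BAM1.2 and 0.826 for POL.1. On simulated data this test made 41 false calls among 190, more than its threshold allows. A fit of the log ratio of a transcript to the rest of its locus, added after seeing the data, called 2 of 6639 (0.0301%) and again none of these entries, with limma adjusted p of 0.673 for CRN.2. An isoform shift smaller than the spread of these entries between libraries could have been missed with 3 libraries a group.

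All 9 genes have long transcripts, from 2313 nt for CRN to 4233 nt for RPK2, and the genotype effect varied with transcript length over all loci. Loci of 500 to 1000 nt had a median log2 fold change of -0.24 and 17.5% of them were higher. Those of 3500 to 4500 nt had a median of 0.18, and 49.4% were higher. In the length range of the 9 genes, 37.4% of 3804 loci were called higher, with a median of 0.11, against the median of 0.31 for the 9 genes. BAM1 and BAM2 lay below the median of loci of their length, whereas CRN, PLL1, BAM3, CLV1 and RPK2 lay above the upper quartile. That quartile was 0.24 for loci of 2000 to 2500 nt (CRN), 0.29 for those of 2500 to 3000 nt (PLL1) and of 3000 to 3500 nt (BAM3), and 0.32 for those of 3500 to 4500 nt (CLV1 and RPK2). CLV2, at 0.29, lay at the quartile of its length.

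**Figure D3:**
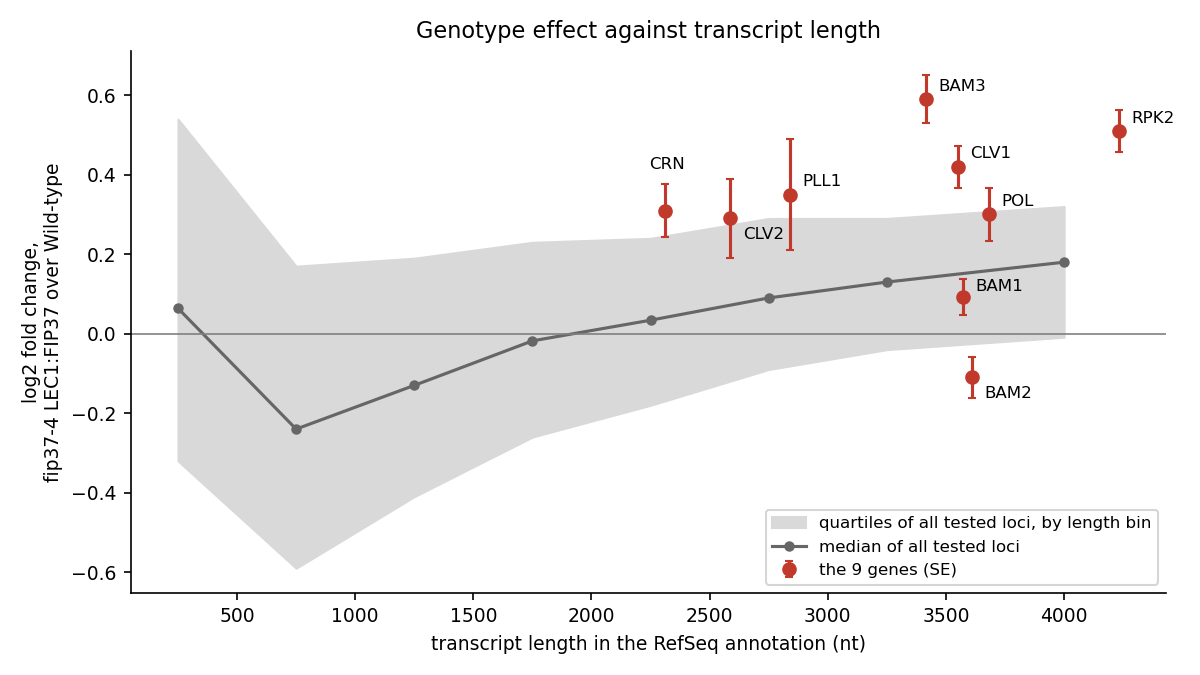
Log2 fold change of fip37-4 LEC1:FIP37 over Wild-type against transcript length in nt in the RefSeq annotation, with the 9 genes as points (error bar: SE) and all tested loci as the median (line) and quartiles (band) of each length bin up to 4500 nt. The median climbs with length from 500 nt onward, and CRN, PLL1, BAM3, CLV1 and RPK2 lie above the upper quartile of their length bin, CLV2 lies at it, and BAM2 lies below the lower one.

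Removing the length trend left CLV1, CRN, RPK2 and BAM3 higher and made BAM2 lower, so that 4 of the 9 genes were called higher and 1 lower. The background was then 28.1% higher and 29.1% lower, and the median of the 9 genes was 0.26 beside 0.0067 for all loci. Scaling each library to the same sum over nuclear loci called 5 higher and 0 lower, where 23.7% of all loci were higher and 31.2% lower. Quantile normalization called 6 higher and 0 lower, with BAM1 taking the place of CLV2, where 27.4% of all loci were higher and 27.7% lower.

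**Figure D4:**
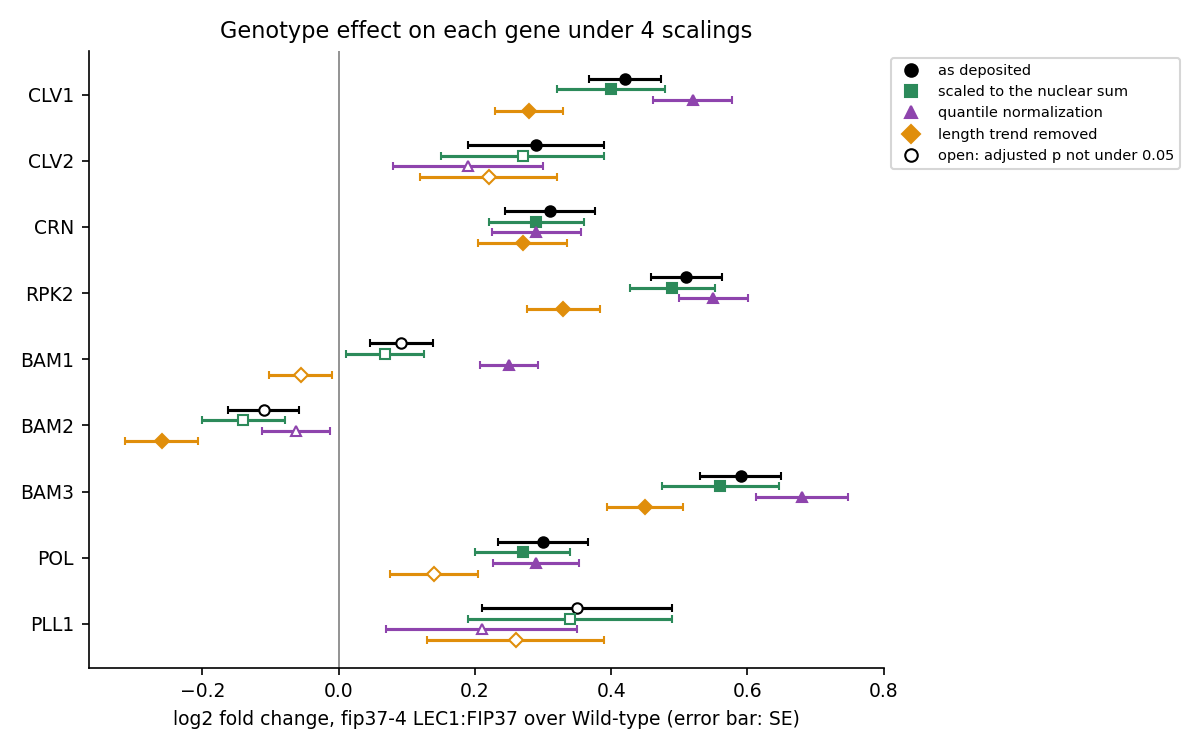
Log2 fold change of fip37-4 LEC1:FIP37 over Wild-type with its SE for each of the 9 genes under 4 scalings; filled symbols have an adjusted p under 0.05 and open symbols do not. CLV1, CRN, RPK2 and BAM3 are filled throughout, BAM1 runs from -0.056 to 0.25, and BAM2 is filled with the length trend removed alone.

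Of the CLE peptide genes, which encode the ligands, 32 were looked up and 19 passed the filter, of which 7 rose and 4 fell. Their median log2 fold change was 0.2, and of all tested loci 27.6% were called higher and 30.9% lower. With the length trend removed 11 CLE genes rose and 2 fell, where 28.1% of all loci were higher and 29.1% lower. With 1 library left out 6 to 9 CLE genes rose and 2 to 4 fell. CLV3 (AT2G27250), the ligand of CLV1, was below the filter, at 0.0725, 0 and 0.116 FPKM in fip37-4 LEC1:FIP37 and listed at 0 in the Wild-type libraries, at most 2 fragments a library. CLE40, its counterpart in the root, was listed at 1.35, 0 and 0 FPKM in fip37-4 LEC1:FIP37 and at 0 in Wild-type. The ligands most tied to stem cells thus gave too few fragments in whole seedlings for a comparison. CLE45, the ligand of BAM3, named after its values were seen, averaged 1.35 ± 0.125 FPKM in fip37-4 LEC1:FIP37 and 1.3 ± 0.0657 FPKM in Wild-type (SD, n = 3 each). It was not called (0.037, limma adjusted p = 0.756), with -0.098 after quantile normalization and a call at 0.27 with the length trend removed (limma adjusted p = 0.0456).

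CLE44, which encodes the vascular peptide TDIF, had 5.47, 4.28 and 4.93 FPKM in fip37-4 LEC1:FIP37 and 2.0, 2.03 and 2.4 FPKM in Wild-type. It was well apart between the groups and rose by 1.03 ± 0.1 on the log2 scale (SE; adjusted p = 5.99e-05 by limma). CLE41, which encodes the same peptide and was named after its values were seen, had 17.1, 12.3 and 14.3 FPKM in fip37-4 LEC1:FIP37 and 8.45, 9.66 and 10.2 FPKM in Wild-type, a fold of 1.51 (limma adjusted p = 0.00319). CLE19, a peptide gene active in embryos, was at 0.941, 1.94 and 1.49 FPKM in fip37-4 LEC1:FIP37 and at 0.298, 0.724 and 0.334 FPKM in Wild-type (1.03 ± 0.23, SE; adjusted p = 0.00477 by limma), on 8 to 59 fragments a library. The strongest falls were of scarce genes. CLE5 was at 0, 0.299 and 0 FPKM in fip37-4 LEC1:FIP37 and at 0.58, 0.888 and 0.53 FPKM in Wild-type (limma adjusted p = 0.00394). CLE2, a root peptide gene, was at 0.436, 0.733 and 0.307 FPKM in fip37-4 LEC1:FIP37 and at 1.22, 1.09 and 1.21 FPKM in Wild-type, and fell by 0.78 on the log2 scale (limma adjusted p = 0.00288).

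Among 9 co-receptors and other CLE receptors, 4 rose and 0 fell (limma; 0 fell also at an unadjusted p under 0.05), with a median of 0.14, which was -0.0034 with the length trend removed. Over all tested loci 27.6% were called higher and 30.9% lower, and 37.4% were higher among loci of 2313 to 4233 nt. PXY (AT5G61480), the receptor of TDIF in the procambium, had 10.7, 10.8 and 10.4 FPKM in fip37-4 LEC1:FIP37 and 5.91, 5.74 and 5.58 FPKM in Wild-type. It rose by 0.84 ± 0.051 on the log2 scale (SE; adjusted p = 5.52e-06 by limma), more than any of the 9 genes. CIK2 and CIK1, co-receptor kinases of CLV1-type receptors, rose too. CIK2 (AT2G23950) averaged 5.17 ± 0.147 FPKM in fip37-4 LEC1:FIP37 and 3.84 ± 0.143 FPKM in Wild-type, and CIK1 (AT1G60800) averaged 26.2 ± 0.263 FPKM in fip37-4 LEC1:FIP37 and 20.5 ± 0.414 FPKM in Wild-type (SD, n = 3 each; limma adjusted p of 0.000873 and 0.000171). ACR4 (AT3G59420), a receptor kinase that acts with CLV1 in the root tip, rose by 0.25 (limma adjusted p = 0.00863), but by 0.11 without a call when the length trend was removed (limma adjusted p = 0.183).

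Of the other phosphatases of the POL family, 4 were looked up and 3 passed the filter, and 0 rose and 0 fell (limma; 0 also at an unadjusted p under 0.05). PLL4 averaged 11.8 ± 0.16 FPKM in fip37-4 LEC1:FIP37 and 11.3 ± 0.105 FPKM in Wild-type, and PLL5 averaged 6.8 ± 0.0296 FPKM in fip37-4 LEC1:FIP37 and 6.5 ± 0.00384 FPKM in Wild-type (SD, n = 3 each; limma adjusted p of 0.246 and 0.328). PLL4 was called higher after quantile normalization (0.15, limma adjusted p = 0.0223), and both were near 0 with the length trend removed, at -0.0033 and -0.013, where POL was not called either. Whether they differ from POL in their response was not tested. Beside these phosphatases and the modulators below, 27.6% of all tested loci were called higher and 30.9% lower. Of 6 modulators and downstream components, 0 rose and 1 fell, with a median of 0.044 (limma; at an unadjusted p under 0.05 ULT1 was also higher). AGB1 (AT4G34460), the G protein beta subunit, had 13.7, 16.1 and 14.3 FPKM in fip37-4 LEC1:FIP37 and 17.8, 17.7 and 18.5 FPKM in Wild-type, and fell by 0.29 on the log2 scale (limma adjusted p = 0.00426). After quantile normalization AGB1 was at -0.16 with no call (limma adjusted p = 0.0526), and 1 modulator, the kinase gene MPK3, was higher (limma adjusted p = 0.0329).

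Of 12 WUSCHEL-related homeobox genes, 4 passed the filter, and 2 rose and 2 fell. Calls were common, with 27.6% of all tested loci higher and 30.9% lower. WUS (AT2G17950) was below the filter, at 0, 0.0908 and 0.0959 FPKM in fip37-4 LEC1:FIP37 and listed at 0 in Wild-type, at most 4 fragments a library. WOX4 (AT1G46480), which acts downstream of PXY in the cambium, had 3.13, 2.76 and 3.32 FPKM in fip37-4 LEC1:FIP37 and 1.43, 1.57 and 1.23 FPKM in Wild-type, a rise of 0.9 ± 0.1 on the log2 scale (SE; adjusted p = 0.000113 by limma). WOX1 (AT3G18010), a gene of leaf margins, averaged 2.13 ± 0.065 FPKM in fip37-4 LEC1:FIP37 and 0.975 ± 0.21 FPKM in Wild-type (SD, n = 3 each; limma adjusted p = 0.00036). WOX13 and WOX14 fell by 0.33 and 0.37 (limma adjusted p of 0.034 and 0.0371), and each lost its call in 5 alternatives. Both did with the length trend removed, after which 2 of the 4 rose and 0 fell, WOX13 when any 1 Wild-type library was left out (adjusted p from 0.0644 to 0.0922), and WOX14 without mutant replicate 1 or 2 or Wild-type replicate 2 or 3 (adjusted p from 0.0577 to 0.128).

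Markers of several seedling tissues, not only those in which these receptors act, moved with genotype as well. Over all tested loci 27.6% were called higher and 30.9% lower. All 4 shoot meristem markers were tested, and 2 rose, KNAT1 by 0.9 ± 0.08 and STM by 0.48 ± 0.13 on the log2 scale (SE; limma adjusted p of 3.29e-05 and 0.0137). STM lost its call after quantile normalization (limma adjusted p = 0.0538) and without Wild-type replicate 2 (limma adjusted p = 0.0515). The summed level of the 4 was 15.4 to 17.0 FPKM in fip37-4 LEC1:FIP37 and 9.78 to 10.3 FPKM in Wild-type. Of 7 phloem markers 4 rose and 0 fell (limma; 0 fell also at an unadjusted p under 0.05). Those that rose were OPS (0.61), MAKR5 (0.49), SEOR1 (0.46) and CVP2 (0.28), and all 7 markers summed to 75.2 to 84.0 FPKM in fip37-4 LEC1:FIP37 and 73.0 to 76.5 FPKM in Wild-type. CVP2 lost its call with the length trend removed (limma adjusted p = 0.0623). The companion cell transporter SUC2, the phloem regulator APL and BRX, named after their values were seen, were not called (-0.059, -0.075 and -0.084), though SUC2 was called higher after quantile normalization (0.15, limma adjusted p = 0.0462).

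All 6 xylem markers rose, where 27.6% of all tested loci were called higher. The largest differences were those of IRX1 (0.82), XCP1 (0.67), XCP2 (0.59) and IRX3 (0.51). The 6 markers summed to 74.6 to 77.8 FPKM in fip37-4 LEC1:FIP37 and 47.9 to 50.5 FPKM in Wild-type. Of 6 root tip markers only SHR (1.14) and SCR (0.28, limma adjusted p = 0.018) passed the filter, and both rose, SCR without a call when scaled to the nuclear sum (limma adjusted p = 0.0548) or with the length trend removed (limma adjusted p = 0.0593), and without Wild-type replicate 2 (limma adjusted p = 0.0686). PLT1, PLT2, BRN1 and SMB were below the filter. PLT1, PLT2 and BRN1 had lower means in fip37-4 LEC1:FIP37, at 0.0665, 0.0841 and 0.208 FPKM, against 0.129, 0.14 and 0.375 FPKM in Wild-type, with groups that did not overlap for BRN1. SMB was at 0.198, 0 and 0 FPKM in fip37-4 LEC1:FIP37 and at 0.1, 0.181 and 0.2 FPKM in Wild-type. With no filter 2 of the 6 were higher and 1 lower, and the median was -0.14. The summed level of all 6, most of it SHR and SCR, was 13.9 to 15.7 FPKM in fip37-4 LEC1:FIP37 and 8.89 to 9.47 FPKM in Wild-type. Of 5 root hair markers 4 were tested and rose, EXPA7 (0.81), EXPA18 (0.57), RHD6 (0.46) and RSL2 (0.39), with a sum over the 5 of 6.52 to 7.41 FPKM in fip37-4 LEC1:FIP37 and 3.73 to 4.0 FPKM in Wild-type. The 5 leaf mesophyll markers all rose, among them RCA (0.88), RBCS1A (0.84), LHCA1 (0.6) and LHCA3 (0.41), with sums of 37000 to 41100 FPKM in fip37-4 LEC1:FIP37 and 26000 to 27200 FPKM in Wild-type. After quantile normalization 2 of these 5 were called, and LHCA3 was at -0.033. The scarce markers VND7 of xylem and RSL2 of root hairs lost their calls then too (limma adjusted p of 0.058 and 0.0813), and also without Wild-type replicate 2 and without mutant replicate 3 (VND7) or 1 (RSL2). The part of cell composition in the changes of the receptors was not tested.

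**Figure D5:**
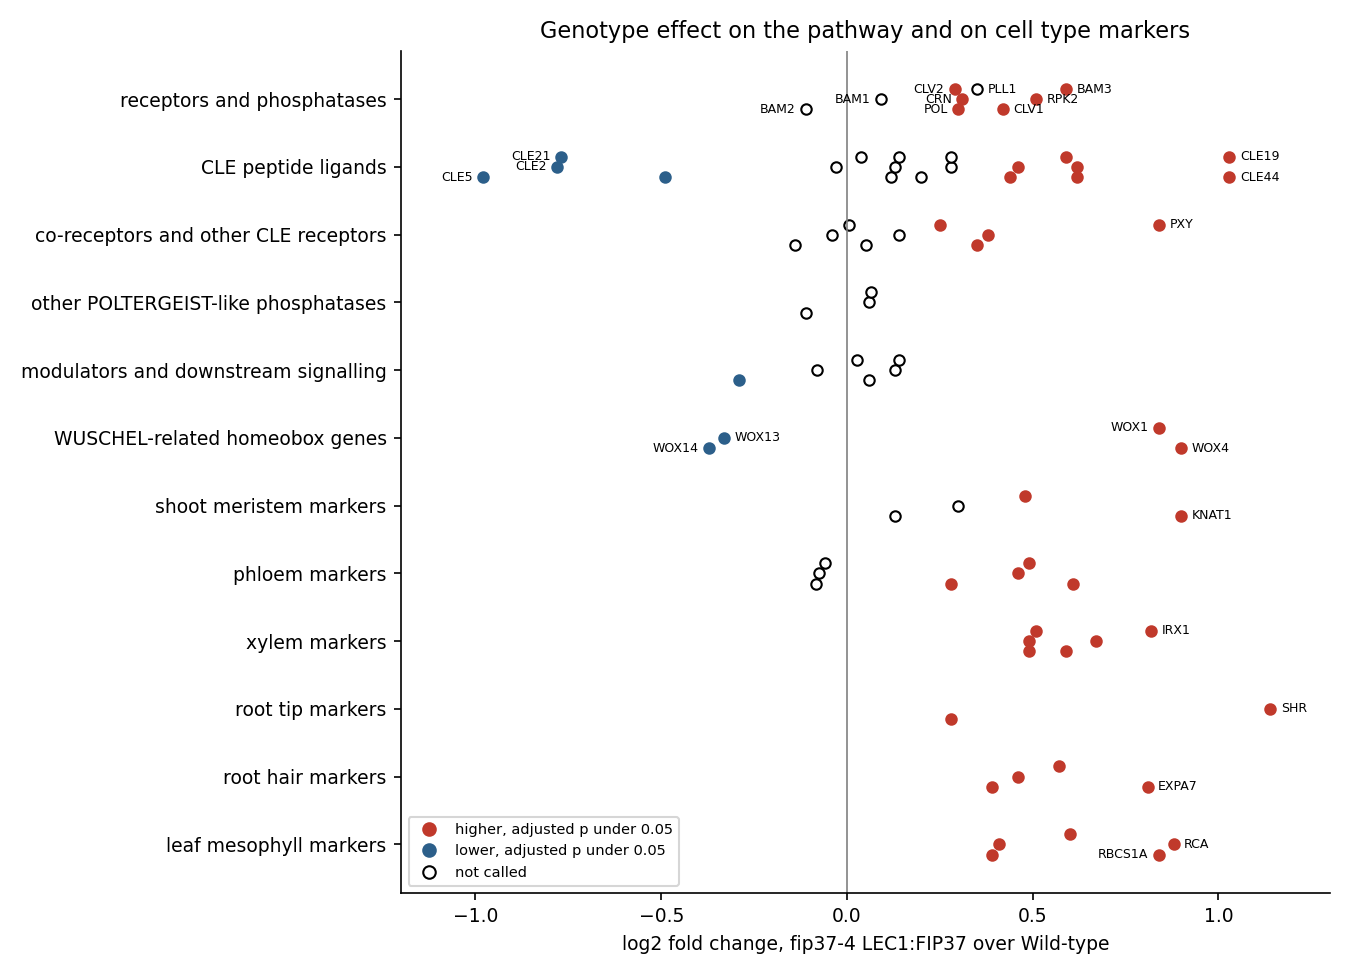
Log2 fold change of fip37-4 LEC1:FIP37 over Wild-type for every tested gene of the pathway lists and the marker lists, 1 row a list, with filled points called higher or lower and open points not called. The receptors and phosphatases lie between -0.11 and 0.59, inside the range of the CLE ligands (-0.98 to 1.03). All tested xylem, root hair and leaf mesophyll markers are called higher, and so are SHR and SCR, the only 2 of 6 root tip markers tested. Not shown are the root tip markers below the filter, of which PLT1, PLT2 and BRN1 had lower means in fip37-4 LEC1:FIP37.

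The profile of CLV1 over the 6 libraries was closest to those of ATCHR12 (AT3G06010), a chromatin remodelling ATPase gene, AT1G68940 and AT1G62970, with root mean square differences of 0.021, 0.022 and 0.022 on the log2 scale after each locus mean was subtracted. Each had a log2 fold change of 0.44. ATCHR12 had 6.39, 5.69 and 5.77 FPKM in fip37-4 LEC1:FIP37 and 4.26, 4.32 and 4.15 FPKM in Wild-type, with replicate 1 highest among the mutant libraries as for CLV1. Among the other 8 genes, RPK2 came nearest to CLV1, at rank 1151 of all tested loci (0.085), followed by BAM3 at rank 1286 (0.089), and BAM2 was farthest, at rank 10504 (0.28). The libraries share depth and composition across loci, so this likeness is a description.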

How the data were processed

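Strand-keeping libraries of 3 fip37-4 LEC1:FIP37 and 3 Wild-type seedling samples were aligned and quantified by the authors with TopHat2 2.0.9 and Cufflinks 2.1.1 on TAIR10, per the submitters' processing notes. The deposited values are FPKM per transcript, a unit read from those tools and from the values; fragment totals are not given in the sources used here. A count model cannot be used on FPKM, and the pseudocount makes changes of low genes look smaller than they are.

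Isoforms were summed per locus. Loci with at least 0.5 FPKM in at least 3 libraries were tested on log2(FPKM + 0.5) by limma (version 3.58.1, under R 4.3.3) with genotype alone in the model, a variance trend and the robust form of empirical Bayes; calls needed an adjusted p under 0.05. Transcripts were fitted likewise, and isoform balance with diffSplice. On simulated data for the comparison per locus (19383 loci, 50 changed at each size) the fit recovered 16%, 60%, 90% and 96% of changes of 0.25, 0.5, 1 and 2 on the log2 scale, with 6 false calls. The simulation changed 200 loci, whereas 58.6% of loci were called in the data, so adjustment was stricter there. Its recovery and false calls are therefore not the rates of the real fit. Fragments behind low values were estimated from the single-fragment step of each library. Names, lengths, exons and overlaps came from RefSeq TAIR10.1, matched by locus code. Its name differs from the authors' build, so no coordinates or sequences are printed. The symbols CIK1 to CIK4 and CLE46 are not in that table.

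The members, lists and tests were chosen with earlier results of these data known. Named are the 9 genes and their transcripts, FIP37, CLV3, WUS, up to 4 called genes of each list with the largest change (or the 2 most abundant where none was called), and the 3 loci most like CLV1; other names were chosen after their values were seen.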

Additional observations from a re-analysis of the deposited data

How the results depend on the processing

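CLV1, CRN, RPK2 and BAM3 kept direction and call in all 16 alternatives: pseudocounts of 0.1 and 1, no filter or a filter of 1 FPKM, 3 other scalings, plain empirical Bayes, the highest transcript alone, a replicate block, and each library left out. The members called higher numbered 5 or 6 with 1 library left out. With the length trend removed 1 member, BAM2, was called lower and BAM1 was at -0.056. The cause was not tested. PLL1 dropped out under the filter of 1 FPKM, and its value depended on the pseudocount (0.56 with 0.1, 0.24 with 1).

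The fit with a replicate block called 6 members higher and 0 lower, and 5075 loci higher and 5804 lower, and changed no call of a member. The labels tie the numbers to no shared plate or day. Deviations from the group means had correlations of -0.0278, -0.0491 and -0.0573 for same-numbered libraries, and of -0.0458 to 0.0986 for the other pairs. Whether same-numbered libraries shared a plate or day cannot be told from these values.

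Isoform balance rests most on the method. The 684 transcripts called became 1443 without a filter, 2 with the log ratio, and 454 to 685 with 1 library left out (454 without Wild-type replicate 3), with none from these genes. After quantile normalization the balance of POL.1 was -0.0089 and that of POL.2 0.0089, and the log2 fold change of CRN.1 was -0.065. With 1 library left out the balance ran from -0.057 to 0.31 for POL.1, from -0.31 to 0.057 for POL.2, from -0.69 to 0.1 for BAM1.1 and from -0.1 to 0.69 for BAM1.2. The log2 fold change then ran from -0.15 to 0.22 for CRN.1 and from -0.034 to 0.76 for BAM1.2, which was listed at 0 in Wild-type replicate 2.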

Other observations

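Some CLE genes, chosen after their values were seen, were uneven among libraries of a group. CLE14 was listed at 0, 3.84 and 3.28 FPKM in fip37-4 LEC1:FIP37, against 1.28, 1.83 and 1.6 FPKM in Wild-type. It was not called (limma adjusted p = 0.983), and without fip37-4 LEC1:FIP37 replicate 1 it was higher by 0.98 on the log2 scale (limma adjusted p = 0.000186). CLE1 was listed at 0 in all 3 fip37-4 LEC1:FIP37 libraries and at 6.67, 1.53 and 0 FPKM in Wild-type, up to 176 estimated fragments. CLE22 was at 0.374, 0.333 and 0.444 FPKM in fip37-4 LEC1:FIP37 and at 2.13, 0.566 and 0 FPKM in Wild-type. A listed 0 can be a failed estimate.

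PLL3, the phosphatase of the POL family below the filter, was at 0.222, 0.196 and 0.111 FPKM in fip37-4 LEC1:FIP37 and at 0.102, 0.0951 and 0.0613 FPKM in Wild-type, on 4 to 15 fragments a library.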
